A study of Mus musculus with 2 samples.

Results

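Cytosolic ribosomal protein genes encode the proteins of the 40S and 60S subunits. Members were taken by symbol: Rpl, Rplp or Rps followed by digits and at most 1 letter, plus Rpsa, which leaves out the Mrpl and Mrps genes of the mitochondrial ribosome. The rule took 84 symbols, of which 81 had a probe and 79 were measured, out of 21368 named genes with a probe and 13999 measured genes in all. A gene counted as measured when 1 of its probes passed the scanner software's test for signal well above background on each of the arrays, and its brightest such probe gave its value. The 3 symbols with no probe here were Rpl37, Rpl32p and Rpl6l.

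The series holds 2 samples of mouse heart, 1 per genotype, each hybridised to its own single-colour Agilent array. The control was a C57BL6 heart, titled CON-ND. The other was a heart of line 5025Wcl/Mmmh, which carries the transgene Tg (CAG-WRN*K577M) on the B6.Cg form of the same C57BL6 background, and was titled WRN-ND. In it the CAG promoter, active in most tissues, drives WRN-K577M, a form of the Werner syndrome helicase with a lysine-to-methionine change. The labels do not say what ND means, nor the age, sex or number of animals behind each RNA, and they place the comparison in the study of cardiac remodelling. With 1 array per genotype there was no replicate and no test. Every difference below is between these 2 arrays, and the spread between spots or probes covers measurement error only.

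Ribosomal proteins are needed in equal numbers, and their messages are among the most abundant in any growing cell. Many of these messages start with a terminal oligopyrimidine (TOP) tract, a C followed by a run of pyrimidines at the capped end, through which the mTOR pathway and the La-related protein LARP1 set how much of the message is translated. In the heart, making more ribosomes is a known part of the growth of muscle cells under load. Levels here are of messages, and say nothing of their translation.

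The starts of a few members are shown to make the TOP tract visible, a start known from many messages of this family that the symbol rule did not use. Windows run from 25 bases before to 20 bases after an annotated RefSeq start in GRCm38.p6, 5′ to 3′ on the strand of the gene, and capitals mark every unbroken run of at least 8 C or T that touches the 20 bases on either side of the start. The first 3 carry such a run, and the next 2 are the members with the highest log2 ratios, which have none in the window. The last 3 are members whose ratio was below 0, of which Rps27l carries a pair of runs before the start. Runs shorter than 8 are not marked, so a window without capitals does not show that a TOP tract is absent.
Rps6, chr4:86857348-86857392, minus strand: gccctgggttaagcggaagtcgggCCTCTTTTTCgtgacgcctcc
Rpl35, chr2:39005112-39005156, minus strand: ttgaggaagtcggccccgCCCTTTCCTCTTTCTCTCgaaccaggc
Rpl13a, chr7:45128726-45128770, minus strand: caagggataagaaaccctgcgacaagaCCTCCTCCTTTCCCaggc
Rps13, chr7:116334171-116334215, minus strand: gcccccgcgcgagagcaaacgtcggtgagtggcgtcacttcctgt
Rps28, chr17:33824543-33824587, minus strand: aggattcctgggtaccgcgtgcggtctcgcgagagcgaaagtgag
Rps27l, chr9:66946061-66946105, plus strand: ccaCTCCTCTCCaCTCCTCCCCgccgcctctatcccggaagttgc
Rpl3l, chr17:24727801-24727845, plus strand: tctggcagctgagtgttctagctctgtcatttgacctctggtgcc
Rps2, chr17:24720038-24720082, plus strand: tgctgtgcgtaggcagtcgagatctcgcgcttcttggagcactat
Rps27l and Rpl3l each have a further annotated start, not shown, with no such run.

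Promoters of 60 members were matched in the RefSeq table. A pyrimidine run of at least 8 bases at the start was present in 33 of these 60 genes (55%), against 23.7% of all 27025 genes of the table. The share was 24.1% in measured genes that are not members and 24.6% in genes of the mitochondrial ribosome. Counted per promoter it was 48.6% of 72 member promoters and 21.0% of all promoters. The letters CCGGAAG, the core to which ETS-family factors such as GABP bind, were found on either strand of the window from 250 bases before to 50 after the start in 24 of 60 members (40%). All genes of the table had it in 9.93%, measured genes that are not members in 17.8%, and genes of the mitochondrial ribosome in 37.7%. Members with and without either feature overlapped in their ratios. The median log2 ratio was 0.25 in members with a pyrimidine run and 0.26 in those without, and 0.20 with the ETS core and 0.28 without.

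A level is the log2 of the processed signal minus the log2 of that array's 75th percentile, and the log2 ratio is the level in the WRN-K577M heart minus that in the control heart. The ribosomal protein genes had a higher level in the WRN-K577M heart as a family, by a small and even amount. The median log2 ratio of the 79 measured members was 0.26, and the quartiles lay at 0.19 and 0.32. All measured genes had a median of 0.020, and the distance between their quartiles was 0.46, against 0.14 in the members. A log2 ratio above 0 was found in 75 of 79 members, against 52.4% of all measured genes. At least 1.2-fold higher were 38 members (48.1%) against 22.4% of all measured genes, and at least 1.2-fold lower was 1 member (1.27%) against 21.8%. No member with its brightest probe differed by 2-fold or more, which 5.39% of all measured genes did. Summed over the 79 brightest probes, the scaled signal in the WRN-K577M heart was 1.19 times that in the control heart.

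**Figure D1:**
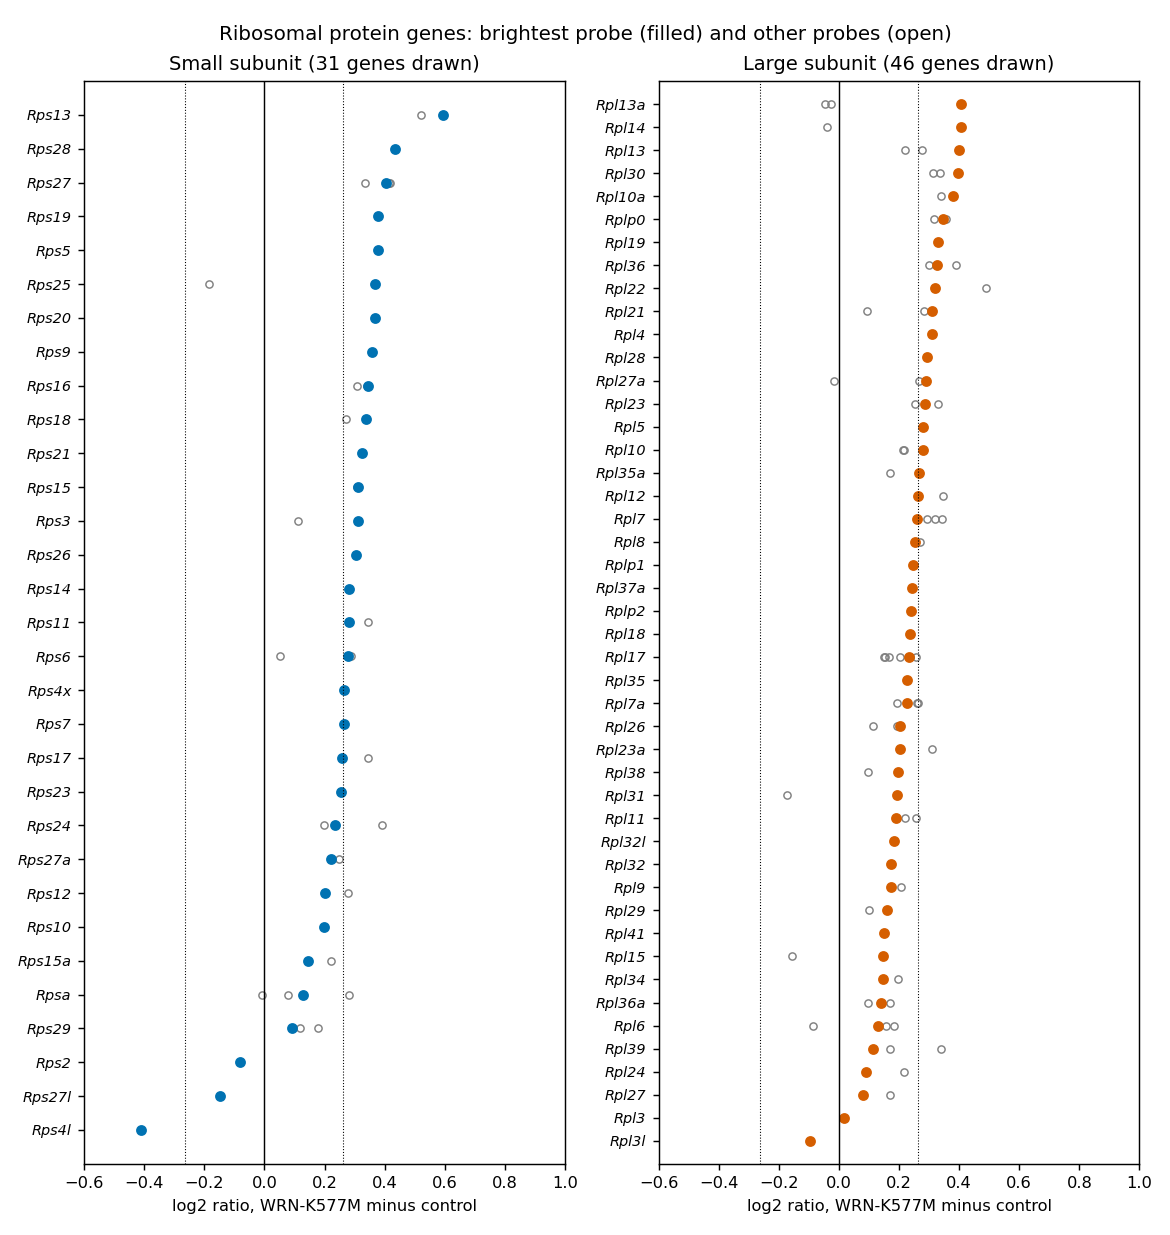
Log2 ratio (WRN-K577M minus control) of 77 measured ribosomal protein genes, ordered within the small subunit (31 drawn) and the large subunit (46 drawn). Filled points are the brightest probe of a gene, open points its other measured probes, the solid line is 0 and the dotted lines are 1.2-fold in either direction. In all, 73 of the 77 filled points lie right of 0. The second probe of Rps2, at 9.76, lies beyond the axis.

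Member probes were among the brightest on the array, and bright probes as a whole sat slightly above 0, so each member was also set against the 200 measured non-members nearest to it in mean level. These equally bright genes had a median log2 ratio of 0.11 at the median member. Members exceeded the median of their equally bright genes by a median of 0.16, and 70 of 79 members lay above it. The median member exceeded 72% of its equally bright genes, and 30 members exceeded at least 75% of theirs. Over the 415 non-members whose level lay between the 10th and 90th percentiles of the members, 64.8% had a ratio above 0, 27.7% were past 1.2-fold upwards and 11.1% downwards. The distance between the quartiles of these 415 genes was 0.37, against 0.14 in the members. For levels of 5 to 6, 6 to 7, 7 to 8 and 8 to 9, other genes had medians of 0.096, 0.097, 0.11 and 0.15. Members in the same ranges had medians of 0.28, 0.26, 0.25 and 0.24, so that the distance between members and other genes was smallest at the brightest end.

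**Figure D2:**
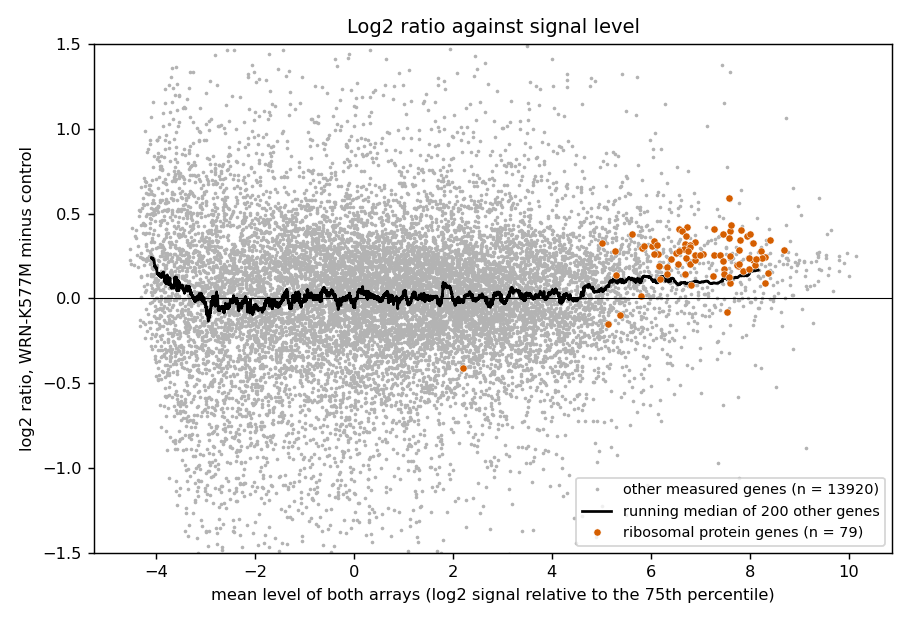
Log2 ratio (WRN-K577M minus control) against the mean level of both arrays for 79 ribosomal protein genes (orange) and 13920 other measured genes (grey), with the running median of 200 other genes (black line). Genes beyond 1.5 in either direction are not drawn. Of the 79 members, 70 lie above the median of the 200 other genes nearest in level.

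How far the family stood above 0 depended on the normalisation. Quantile normalisation gave a median log2 ratio of 0.17 with 13 members at least 1.2-fold higher (16.5%, against 21.0% of all measured genes). Cyclic loess, which removes a dependence of the ratio on brightness, gave 0.13 with 8 members (10.1%, against 18.1%). With both, the share of members past 1.2-fold was thus below that of all genes. The authors' deposited value table gave a median of 0.21 and 21 members (26.6%, against 18.2%). The count above 0 changed less, with 71 of 79 under quantile normalisation, 69 under cyclic loess and 74 with the deposited values. Above their equally bright genes lay 71 members under quantile normalisation and 70 under cyclic loess. With the deposited values that count had to stay at 70, as they are the processed signal times 1 factor per array. All of these values are relative to the other probes of an array. Before any scaling the median log2 ratio of the members was -0.031 and that of all measured genes -0.27, with a 75th percentile of the signal that was higher on the control array (256) than on the other (210).

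Both subunits lay on the same side of 0. In the small subunit 29 of 32 genes (90.6%) had a ratio above 0, 19 (59.4%) were past 1.2-fold upwards and 1 downwards. In the large subunit 46 of 47 measured genes (97.9%) had a ratio above 0, 19 (40.4%) were past 1.2-fold upwards and none downwards. Of all measured genes 52.4% were above 0 and 22.4% past 1.2-fold upwards, and of equally bright genes 64.8% and 27.7%. The median log2 ratios were 0.28 (small subunit) and 0.24 (large subunit). Set against equally bright genes, these medians were 0.17 and 0.13. The distance between the quartiles was 0.13 in each.

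Rps13, a small-subunit protein at the interface with the large subunit, had the highest ratio of the family. Its level was 7.28 (control) and 7.88 (WRN-K577M), a log2 ratio of 0.59 (1.51-fold), and its other probe gave 0.52. It was the one member past 1.5-fold. Rps28, which lies near the mRNA exit and is mutated in some families with Diamond-Blackfan anaemia, read 7.40 (control) and 7.83 (WRN-K577M), a log2 ratio of 0.44 from 1 probe. Rps27, the zinc-finger protein also called metallopanstimulin, went from 7.62 to 8.02, and its 4 probes gave log2 ratios of 0.33 to 0.42. Every probe of Rps13 and of Rps27 was at least 1.2-fold higher.

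In the large subunit Rpl13a, whose protein also takes part in translational control during inflammation, read 6.36 (control) and 6.77 (WRN-K577M), a log2 ratio of 0.41, but its other 2 probes, both dimmer, gave -0.048 and -0.027. Rpl14 went from 7.08 to 7.48, also 0.41, while its dimmer probe gave -0.039. For Rpl13a and Rpl14 the difference between genotypes thus rests on 1 of the probes.

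The 3 brightest members had log2 ratios from 0.15 to 0.35. Rps14, a small-subunit protein whose loss is known from the 5q- syndrome, read 8.54 (control) and 8.83 (WRN-K577M), a log2 ratio of 0.28. Rplp0, the base of the stalk, read 8.23 and 8.58 (log2 ratio 0.35). Rpl41, the shortest protein of the ribosome, read 8.30 and 8.45, and its log2 ratio of 0.15 did not exceed the median of its equally bright genes and was -0.0024 under cyclic loess. No member spot was saturated. Brightness here is a property of the probe and gives no order of expression between genes.

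The lateral stalk, an arm of the large subunit that recruits elongation factors, was higher in all 4 of its genes. The log2 ratios were 0.35 for Rplp0, 0.26 for Rpl12, 0.25 for Rplp1 and 0.24 for Rplp2. Rpl5 and Rpl11, which bind 5S rRNA and, when free, hold the p53 ligase MDM2 in check, had log2 ratios of 0.28 (5.13 to 5.41) and 0.19 (7.67 to 7.86). Of 9 proteins around the exit tunnel through which the new chain leaves, all 9 had a ratio above 0 and 3 were at least 1.2-fold higher (Rpl19 at 0.33, Rpl22 at 0.32 and Rpl4 at 0.31), with a median of 0.23. The 19 members listed as mutated in Diamond-Blackfan anaemia, an inherited failure to make red cells, all had a ratio above 0, and 7 were at least 1.2-fold higher, with a median of 0.24. These medians are close to that of the whole family. The shares at least 1.2-fold higher were 33.3% (exit tunnel) and 36.8% (anaemia list), against 48.1% of all members and 27.7% of equally bright genes.

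Other cytosolic ribosomal proteins, whose symbols the rule does not take, read like the members. Fau, which encodes a ubiquitin-like protein fused to a 40S protein, had a log2 ratio of 0.33 (7.85 to 8.18). Rps3a1, a 40S protein, had 0.27 (6.27 to 6.54). Rack1, a signalling scaffold on the 40S head, had 0.21 (7.60 to 7.81). Of these 3 genes, 2 were at least 1.2-fold higher.

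The low end of the family was held largely by paralogs. Only 4 measured members had a ratio below 0, and 3 of them were copies of another member. Rps4l, a copy of Rps4x that RefSeq lists as a transcribed pseudogene, read 2.42 (control) and 2.01 (WRN-K577M), a log2 ratio of -0.41, the lowest of the family and the one value at least 1.2-fold lower. It was also by far the dimmest measured member, the next lowest mean level being 5.02. Its parent Rps4x went the other way, from 6.02 to 6.29 (0.26). Rps27l, a p53 target close to Rps27 in sequence, read 5.20 and 5.06 (-0.15), against 0.41 for Rps27.

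Rpl3l is the heart and skeletal muscle form of Rpl3, and takes its place in ribosomes of mature muscle. It read 5.43 (control) and 5.33 (WRN-K577M), a log2 ratio of -0.097. Rpl3 itself read 5.79 and 5.81, a log2 ratio of 0.02, the lowest of any member above 0. The Rpl3 pair thus lay at the low end of the family, with both genes below the median of their equally bright genes. Yet each differed between the arrays by less than 0.20, the error combined from the software's spot errors. The same holds for Rps27l, Rpl27 and the brightest probe of Rps2, and for other members with small ratios. Rpl3l and Rpl3 each rest on 1 probe, and Rpl3 was below 0 in 5 of the 9 alternatives, at -0.023 to -0.085.

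The other paralogs did not share a direction. Rpl22l1 had a log2 ratio of 0.27 against 0.32 for Rpl22, Rpl36al had 0.086 against 0.14 for Rpl36a, and Rpl7l1 had 0.013, a value below 0 in 3 of the alternatives, against 0.26 for Rpl7 (these 3 copies lie outside the symbol rule). Rpl32l, a retrocopy of Rpl32 and a member by its symbol, had 0.18 against 0.17 for Rpl32. Rpl10l, a copy of Rpl10 used in male germ cells, had 2 probes, and neither was well above background in either heart. Rpl39l, also known from the testis, was well above background in the control heart alone. Its level there was -3.95, at least 1.39-fold higher than in the WRN-K577M heart, where the lowest level counted as well above background was -4.42 and the probe itself read -4.60. The parents Rpl10 and Rpl39 had log2 ratios of 0.28 and 0.11. Without Rpl3l, Rps27l, Rpl32l and Rps4l, a choice made after seeing the data, 74 of 75 members were above 0 and the median stayed at 0.26.

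Rpl27, a 60S protein on the anaemia list, had the lowest log2 ratio above 0 after Rpl3, 0.078 (6.77 to 6.85), and its other probe gave a higher value, 0.17. It was below 0 with normexp (-0.059), quantile normalisation (-0.0080) and cyclic loess (-0.042). Rps21, the dimmest member apart from the paralogs, read 4.85 and 5.18, a log2 ratio of 0.32. Rps2, a 40S protein near the mRNA entry, was the remaining member below 0. Its brightest probe read 7.58 (control) and 7.50 (WRN-K577M), a log2 ratio of -0.082.

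The second probe of Rps2 gave the highest log2 ratio of all 28648 measured probes. It read -2.71 in the control heart and 7.05 in the WRN-K577M heart, a log2 ratio of 9.76, with processed signals of 39.2 and 27833. The next highest probe of the array was at 4.17, so the gap is many times the software's error of 0.53 for this probe. With normexp background correction the ratio was 8.66. The spot was neither saturated nor an outlier in uniformity, and the 10 measured neighbouring spots had log2 ratios from -1.18 to 1.04, with a median of 0.30. In the WRN-K577M heart both Rps2 probes were bright, while in the control heart they lay at 7.58 and -2.71. The sequence of the probe is not part of the files used here, and the cause was not tested. Averaging both probes would turn the ratio of Rps2 from -0.082 to 4.84.

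**Figure D3:**
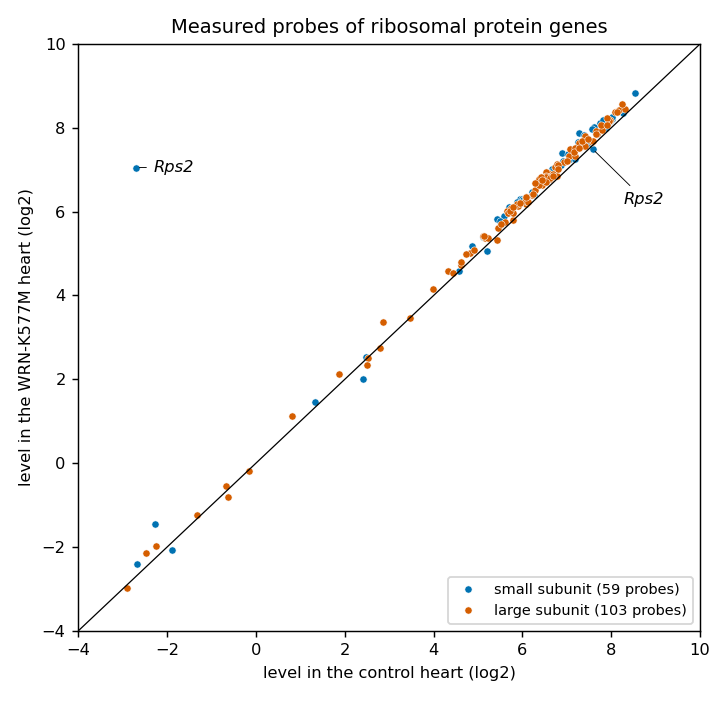
Level of every measured probe of a ribosomal protein gene in the control heart (x axis) and the WRN-K577M heart (y axis), both in log2 relative to the 75th percentile, for 59 small-subunit and 103 large-subunit probes, with the line of equal levels. Of the 162 probes, 149 lie above the line. The Rps2 probe farthest above it is at -2.71 and 7.05, and the other Rps2 probe lies just below it.

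Where a member had several probes they mostly gave the same value. For the 50 such members the median distance between the highest and lowest probe was 0.088, and 36 members had a distance under 0.2. Rpl17 had the most probes, 7, with log2 ratios from 0.15 to 0.26. A probe of Rpl23 that was printed at 10 spots gave 0.25 ± 0.045 (SD over spots), with single spots from 0.16 to 0.32. Over the 11 repeated probes in the brightness range of the members the SD between spots had a median of 0.043 and a highest value of 0.066. The scanner software's errors of the spot signals, combined over both arrays, gave an error of 0.20 for each member's log2 ratio. Neither covers the spread between hearts.

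The positive ratios came mainly from bright probes. Among the 132 member probes with a mean level of 5 or more, 129 had a ratio above 0 and the median was 0.26. Among the 21 with a mean level under 4, 12 were above 0 and the median was 0.093. In 18 genes that had both kinds, the dim probes gave the lower value in 13, with a median of 0.13 against 0.28 for the bright probes of the same genes. In Rps25, the bright probe gave 0.37 and the dim one, at levels of -1.89 and -2.08, gave -0.19. Rps2 and Rps25 both had probes that differed by 0.5 or more. Ribosomal protein genes have many processed pseudogenes of nearly the same sequence, so a probe can also bind messages of other copies, and single probes are uncertain to that extent.

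Over all 162 measured member probes, 149 (92.0%) had a ratio above 0, 74 (45.7%) were at least 1.2-fold higher and the median was 0.25. Over the 18222 measured probes of other genes the shares were 52.4% and 23.1%, and the median was 0.020. All probes were above 0 in 41 of the 50 members with several probes, and all were at least 1.2-fold higher in 12. In the other 9 members (Rps2, Rps25, Rpl13a, Rpl14, Rpl31, Rpl27a, Rpl15, Rpsa and Rpl6) the probes fell on both sides of 0. These counts of members with several probes were not set against other genes. Across members, the correlation of the log2 ratio with the mean level was r = 0.39 (Spearman's rho 0.055, n = 79 genes on the same pair of arrays), and r = 0.15 without Rps4l.

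Other TOP messages, which share the start of ribosomal protein messages but encode other proteins, had a median log2 ratio of 0.26 in 16 measured genes, with 14 above 0, 7 past 1.2-fold upwards and none downwards. The highest were Eef2, the translocase of elongation, at 0.62 (6.57 to 7.19), Eif3e, a subunit of initiation factor 3, at 0.55 (2.70 to 3.25), and Nap1l1, a histone chaperone, at 0.55 (3.81 to 4.36). Of 37 initiation factors 31 were above 0 and 13 at least 1.2-fold higher, none lower to that extent, with a median of 0.20. Eif1a, which helps scanning for the start codon, had the highest at 0.83 (1.15 to 1.98), and Eif4b, a partner of the eIF4A helicase, had 0.49. Of 10 elongation factors and their kinase 8 were above 0 and 3 at least 1.2-fold higher, with a median of 0.15. After Eef2 the highest there were Eef1a2, the muscle and neuron form of eEF1A, at 0.41 and Eef1d at 0.31. The shares at least 1.2-fold higher were 43.8% (TOP), 35.1% (initiation) and 30% (elongation), against 22.4% of all measured genes. Against equally bright genes the medians were 0.18 (TOP), 0.16 (initiation) and 0.092 (elongation), and that of the members was 0.16. Several genes stand on more than 1 of these lists.

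Genes for assembling ribosomes lay as high as the ribosomal proteins but with more spread. Of 58 measured biogenesis genes, 51 had a ratio above 0, 26 were past 1.2-fold upwards and 1 downwards. The median log2 ratio was 0.24 and the distance between quartiles 0.31. Against equally bright genes their median was 0.20, and that of the ribosomal proteins was 0.16. The largest were Utp20, of the small-subunit processome, at 1.34 (-1.98 to -0.64), Sbds, which helps release eIF6 from the 60S subunit, at 0.82 (2.87 to 3.69), and Gnl3, or nucleostemin, at 0.80 (0.41 to 1.21). Of 17 genes of RNA polymerase I and its factors 12 were above 0, 3 past 1.2-fold upwards and 2 downwards. Their median was 0.21, and 0.18 against equally bright genes. The share upwards was 17.6%, below the 22.4% of all measured genes, and the share downwards was 11.8%, against 21.8%. Myc, a transcription factor that drives ribosome production, read -0.85 and 0.38 (1.23), Taf1a 0.65 higher on the log2 scale, and Max, the partner of Myc, 3.33 and 2.80 (-0.53).

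Genes that control the translation of TOP messages were closer to the rest of the array. Of 16 such genes 10 were above 0, with a median of 0.097, and of 0.075 against equally bright genes. Past 1.2-fold upwards were 3 (18.8%, against 22.4% of all measured genes), and downwards 1. Eif4ebp1, the repressor of cap-dependent initiation that mTOR switches off, had 0.86 (4.68 to 5.53), Mtor itself had 0.31, and Larp4 had -0.28, with its probes ranging from -0.28 to 0.54. In ribosome rescue and quality control, 6 of 9 genes were above 0, with a median of 0.050, and of 0.045 against equally bright genes. At least 1.2-fold higher were 2 (22.2%, close to the 22.4% of all measured genes), and none was lower to that extent. The values were 0.31 for Abce1, which splits ribosomes for reuse, 0.27 for Ltn1, a ligase for stalled chains, and -0.21 for Gigyf2.

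Proteins of the mitochondrial ribosome, made in the cytosol but serving the translation of mitochondrial messages, lay on the other side of 0. Of 77 measured genes 22 had a ratio above 0, none was at least 1.2-fold higher and 23 (29.9%, against 21.8% of all measured genes) were at least 1.2-fold lower, with a median log2 ratio of -0.14. Mrpl45 read 4.40 and 3.85 (-0.55), Mrpl18 4.53 and 4.01 (-0.52), and Mrpl43 5.32 and 4.84 (-0.49). Against equally bright genes their median was -0.19, and that of the cytosolic ribosomal proteins was 0.16. The median log2 ratios of both families kept their signs in all 9 alternative ways of processing the arrays. The comparison of mitochondrial genes, and of the lists above, with equally bright genes was not repeated under them. The lists above also kept the signs of their median log2 ratios, except for ribosome rescue. Its median was -0.015 under cyclic loess and -0.00047 with the deposited values.

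**Figure D4:**
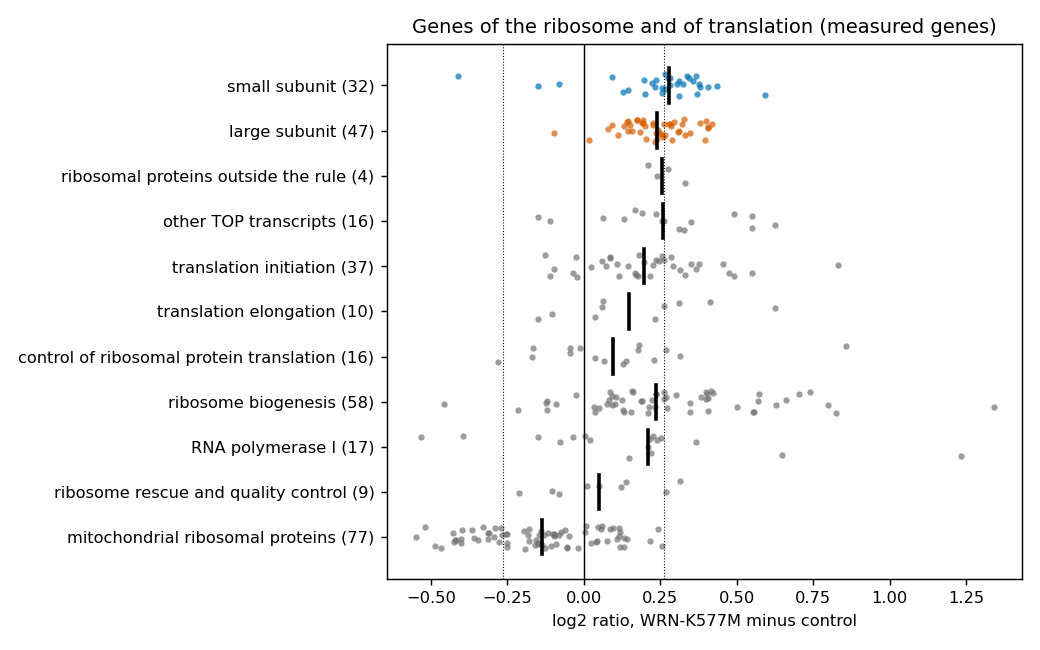
Log2 ratio (WRN-K577M minus control) of each measured gene of the ribosome and of translation, by list, with the number of genes in brackets, the median as a black bar and dotted lines at 1.2-fold. Cytosolic ribosomal proteins lie close together around 0.24 to 0.28, ribosome biogenesis genes around 0.24 with more spread, and mitochondrial ribosomal proteins around -0.14. Points are shifted vertically at random to keep them apart.

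The samples also differed in markers of cell types. Heart muscle was present in both, with Tnnt2, cardiac troponin T, at 8.99 (control) and 9.21 (WRN-K577M). The 10 ventricular markers had a summed scaled signal 1.14 times that of the control and a median log2 ratio of 0.18, which was -0.014 under quantile normalisation. Past 1.2-fold downwards were 7 of 10 measured atrial markers (sum 0.258 times the control), 7 of 10 fibroblast markers (0.696) and all 10 macrophage markers (0.615). So were 3 of 4 neutrophil markers (0.0802), 4 of 5 erythroid markers (0.235), all 5 adipocyte markers (0.124) and all 3 lung epithelial markers (0.154). The 1 measured B-cell marker (0.552) and 2 of 3 T-cell markers (0.947) were lower to that extent too. Among 8 endothelial markers 1 was higher and 1 lower to that extent. Of all measured genes 21.8% were at least 1.2-fold lower. Well above background in the control alone were 6 more lung, 3 neutrophil, 2 B-cell, 2 T-cell, 2 adipocyte, 1 atrial and 1 erythroid marker. The part of these marker differences in the values of the ribosomal protein genes was not tested. In such bulk RNA, a change in the share of a cell type and a change in RNA per cell cannot be told apart.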

How the data were processed

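Total RNA of the 2 hearts was turned into Cy3-labelled cRNA for single-colour Agilent arrays, per the labels' protocols. The submitters' processing notes name Agilent Feature Extraction 11.5.1.1 as the source of each spot's intensity, and the processed signal used here is background-subtracted, per the file headers. The deposited value table, an intensity on a linear scale, was used as an alternative. It equals the processed signal times 4.12 (control) and 4.86 (WRN-K577M), and its column medians are 79.5 and 79.0. The array design was annotated on mm9, and 22544 of 23871 accessions were named through a RefSeq table of GRCm38.p6.

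Control spots and 257 outlier spots were left out, and repeated spots were averaged per probe. Each array's 75th percentile of processed signal was 256 and 210, and 55.2% and 52.9% of probes were well above background. Values are log2, and with 2 arrays no test was made. Quantile normalisation, cyclic loess and normexp (offset 50) used limma 3.58.1 in R 4.3.3, and the calculation was tested on simulated data. A planned comparison with short, bright genes was not run, as protein lengths were not used here.

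Members and lists were chosen with earlier results of these data known. Named with values were the 6 highest and 6 lowest members, the 3 brightest and 3 dimmest, members not well above background, members whose probes differed by 0.5 or more, the stalk and 5S proteins, paralogs with their parents, proteins outside the symbol rule, and the 3 largest absolute log2 ratios of each other list. The 3 highest exit-tunnel genes and single genes named for their probes were added after their values were seen. Some genes that this choice takes are not reported here by name, and count only in totals.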

Additional observations from a re-analysis of the deposited data

How the results depend on the processing

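Under the 9 alternatives the median log2 ratio of the ribosomal protein genes stayed above 0, and it moved most with quantile normalisation (0.17) and cyclic loess (0.13). The count at least 1.2-fold higher was 13 with quantile normalisation, 8 with cyclic loess and 21 with the deposited values, and 1 at a threshold of 1.5-fold and 0 at 2-fold. Taking every measured probe, a choice made after seeing the data, gave 149 of 162 above 0 (92.0%, against 52.4% of measured probes of other genes). Of 324 values of named members 311 kept their direction, and of 243 values of lists 239 did. Part of this agreement was fixed in advance. The deposited values, and scaling by the median or by the 75th percentile of detected probes, only shift every log2 ratio by a fixed amount. A stricter filter on dim probes left the median of the members at 0.26, with 75 of 79 above 0, as in the main setting. No value past 1.2-fold as reported changed sign, but Rps2 turned from -0.082 to 4.84 when its probes were averaged. Keeping dim probes moved the median of all genes to 0.12. With 1 array per genotype, no replicate could be left out. No paired analysis was possible because each group holds 1 sample.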

Other observations

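Rps2 and Rpl3l, both below 0 among the ribosomal protein genes, lie close together on mouse chromosome 17 with 1 measured gene between them, a pattern noticed after their values were seen. That gene, Ndufb10 of mitochondrial complex I, had a log2 ratio of -0.0046 (8.47 to 8.47). Of the 21 other measured genes made up of Ndufb10 and the 10 nearest on each side, 11 had a ratio above 0 and the median was 0.021, close to the 0.020 of all measured genes.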
